A study of Mus musculus with 8 samples.

Results

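The genes described here encode the conjugating enzymes of the liver, the UDP-glucuronosyltransferases (Ugt genes) and the cytosolic sulfotransferases (Sult genes). Members were taken by name, as the genes of the Ugt1a, Ugt2a, Ugt2b and Ugt3a subfamilies and the numbered Sult genes without pseudogenes, which gave 42 of 55536 genes with an identifier, 21 Ugt and 21 Sult genes, and left out 6 pseudogenes. UDP-glucuronosyltransferases sit in the membrane of the endoplasmic reticulum and join glucuronic acid from UDP-glucuronic acid to bilirubin, steroids, bile acids and drugs. Sulfotransferases are cytosolic and move sulfate from the donor PAPS to phenols, steroids, bile acids, thyroid hormones and catecholamines. Both reactions make lipophilic compounds soluble in water, so that the conjugates can leave the hepatocyte through transport proteins into bile or blood.

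Liver RNA was sequenced from wild-type C57BL/6 mice aged 2 months that had received 0.1 OD of an adenovirus and were killed 1 week later after an overnight fast. In the shEif4ebp3 group (n = 4) the virus carried a short hairpin RNA against Eif4ebp3, which encodes a repressor of cap-dependent translation, and in the shLacZ group (n = 4) a hairpin against the bacterial gene lacZ. Both groups thus carried virus and hairpin, and mice without virus were not analysed here. The sex of the mice, the promoter of the hairpin and the cells that took up the virus are not given in the labels, and whether the samples are separate animals is not stated either, so the p-values here describe only how these 8 libraries spread, which may be technical.

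Each sample held 24371461 to 32389444 estimated counts. The target, Eif4ebp3, held 9.62, 13.9, 37.2 and 19.5 CPM (read counts relative to library size, with library sizes scaled by TMM, trimmed mean of M-values) in shEif4ebp3 replicates 1 to 4, against 289, 216, 204 and 49.3 CPM in shLacZ replicates 1 to 4, a log2 fold change of -3.24 ± 0.53 (SE; adjusted p = 0.000379, edgeR). The groups did not overlap, and shLacZ replicate 4 was the lowest control. Hepatocyte markers were the most abundant of the marker lists, with a summed level of 62570 to 80745 CPM in shEif4ebp3 livers against 77360 to 99106 CPM in shLacZ livers, and 9 of 11 fell (7 lower and 2 higher with libraries scaled to their total count). Of 14 macrophage and monocyte markers 13 rose (summed 1357 to 1643 CPM against 547 to 714 CPM in shLacZ livers), of 14 T and NK cell markers 12 rose (57.4 to 77.5 CPM against 17.9 to 35.9 CPM), and of 14 stellate cell and fibroblast markers 10 rose (617 to 1059 CPM against 238 to 297 CPM). Of 8 cholangiocyte markers 5 rose, while 2 of 10 endothelial markers fell and 1 rose, against 0 lower and 3 higher when libraries were scaled to their total count. Beside these counts, 29.4% of all genes tested rose and 27.8% fell. With libraries scaled to their total count, 63.9% of all genes were higher and 7.72% lower. In that scaling 14 macrophage and monocyte, 12 T and NK cell, 13 stellate cell and fibroblast and 7 cholangiocyte markers were higher. No kidney marker reached the count filter and 4 of 6 were at 0 in every sample. These lists moved in the same samples as every change given here. Their part in those changes was not tested, and in bulk tissue fewer cells of a type and less RNA per cell cannot be told apart.

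Of the 42 members, 26 had enough counts to be tested, 10 had few counts and 6 had none in any sample. A gene is said to have risen or fallen where its adjusted p was under 0.05 in edgeR's quasi-likelihood test with Benjamini-Hochberg adjustment over 15375 genes. By that rule 15 members fell (57.7% of those tested, against 27.8% of all genes tested), 4 rose (15.4%, against 29.4%) and 7 did not pass, so 73.1% differed in either direction, against 57.2% of all genes. For 17 members the ranges of the groups were apart (65.4%, against 52.1% of all genes), and of these 14 were lower in shEif4ebp3 livers (24.7% of all genes were) and 3 higher (27.4%). A decrease beyond -2 on the log2 scale was called for 7 members, 26.9% of those tested and 1.57% of all genes. These counts hold Sult2a7, which fell beyond -2, and Sult2a2, which rose. Sult2a2 entered the test only through the group in which it was high, and Sult2a7 mainly so. The median log2 fold change of the tested members was -0.59, against -0.00 for all genes.

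The count of small changes depended on how libraries were scaled. TMM sets the median gene near no change, whereas scaling to the total count placed that median 0.57 (log2) higher. Under total-count scaling 10 members were lower (38.5%, against 7.72% of all genes) and 7 higher (26.9%, against 63.9%), with a median of -0.04 against 0.56 for all genes. The 10 that were lower under both scalings were Sult2a8, Sult5a1, Ugt2b38, Ugt2b1, Ugt3a1, Ugt3a2, Sult2a7, Ugt2a3, Ugt2b37 and Sult1b1, and the 4 higher under both were Sult2a2, Sult1e1, Sult1c2 and Ugt2b35. Changes are given relative to the median gene, and the total-count value is added where it altered a call or a direction.

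**Figure D1:**
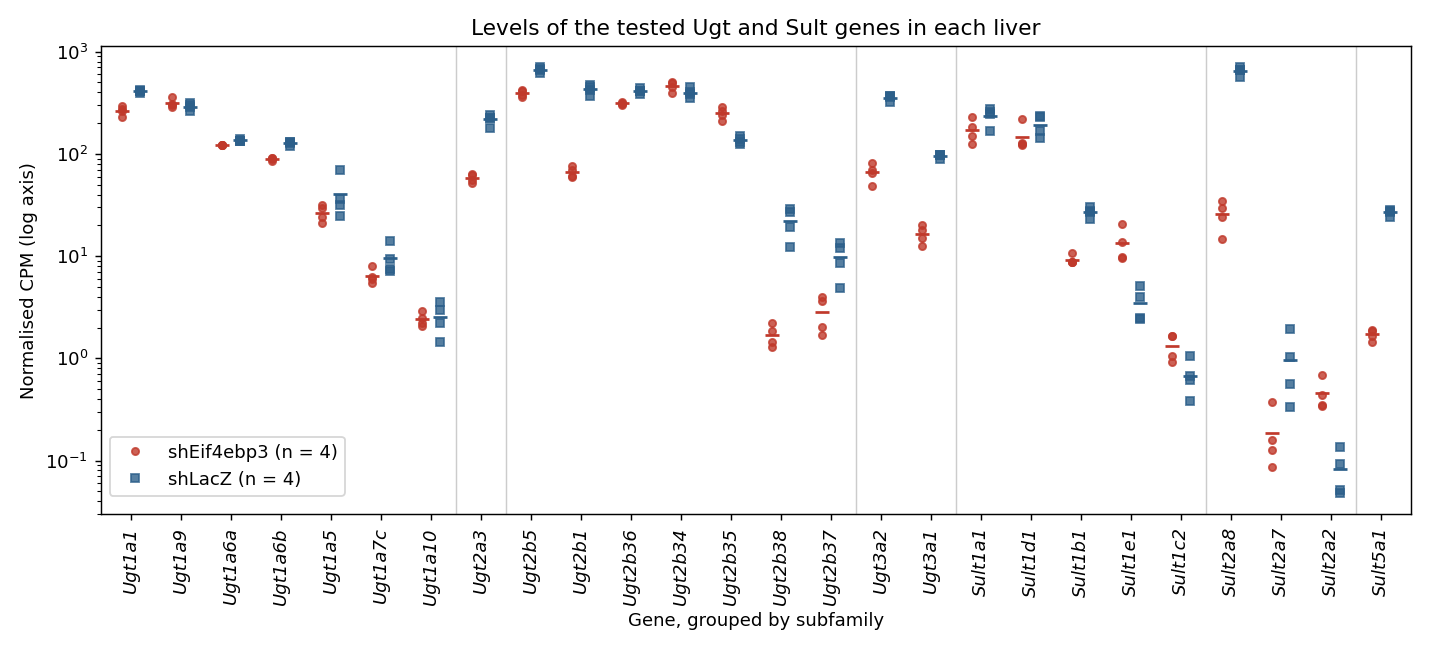
Normalised CPM of the 26 tested genes in each of the 4 shEif4ebp3 livers (circles) and 4 shLacZ livers (squares), on a log axis, with the group mean as a line. Sult2a8 shows the widest gap between groups among abundant members, with 14.7 to 34.7 CPM in shEif4ebp3 livers against 560 to 701 CPM in shLacZ livers, while Ugt2b35 and Sult1e1 lie higher in shEif4ebp3 livers.

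**Figure D2:**
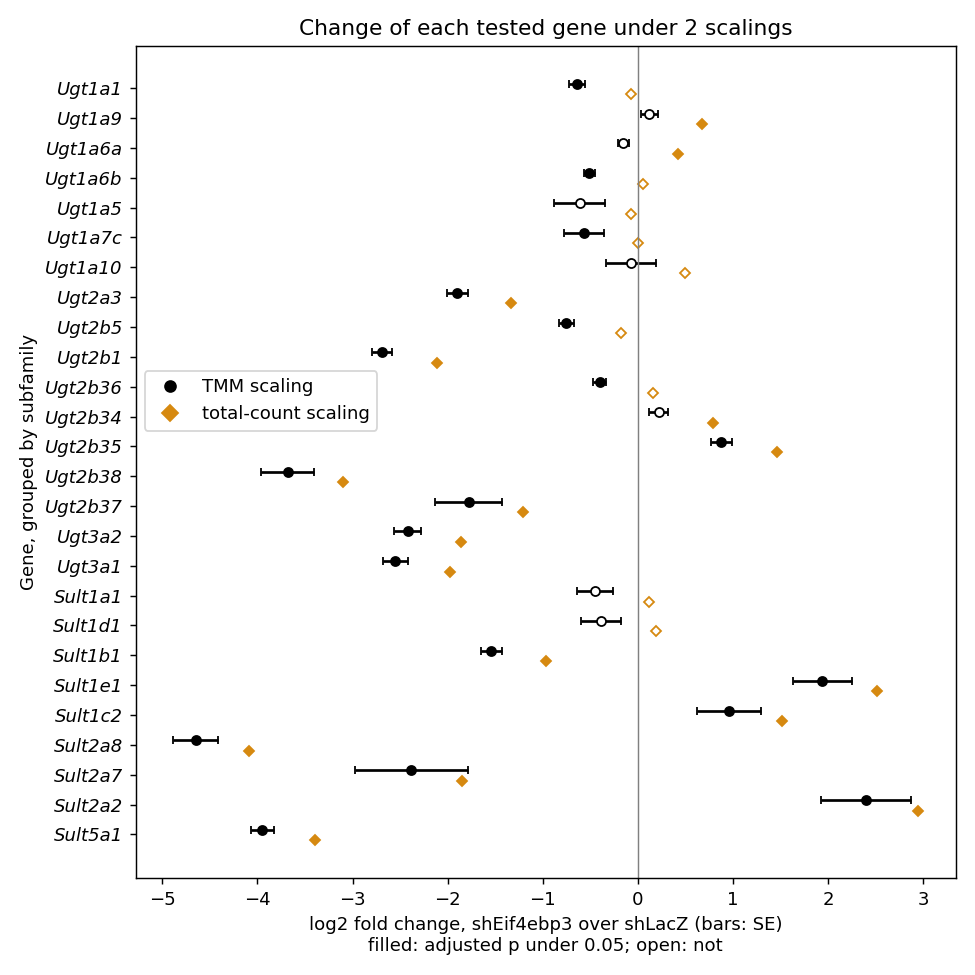
Fitted log2 fold change of shEif4ebp3 over shLacZ livers for each tested gene, with TMM scaling (circles, bars are SE) and with total-count scaling (diamonds, n = 4 per group). Filled symbols passed an adjusted p of 0.05 and open ones did not, and the diamonds lie to the right of the circles for every gene shown.

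The Ugt1a genes lie within chr1:88055388-88220002 (mm10) on the plus strand. Each has a promoter and a first exon of its own, which is spliced to exons shared by the whole locus, so their proteins differ in the part that binds the substrate. Shared exons also make the division of reads among them uncertain: 52.1 to 79.8% of the 50-base windows in the transcripts of these genes recur in another gene. Of 7 tested, 3 fell and 4 did not pass, so 42.9% were called, against 57.2% of all genes (27.8% fell and 29.4% rose). Under total-count scaling 2 were higher and 0 lower, where 63.9% of all genes were higher and 7.72% lower. By edgeR with TMM 0 of the 7 rose, and 0 of them had an unadjusted p under 0.05 in that direction, while DESeq2 and limma-voom also called 0 higher. Ugt1a8, with 13 counts in shEif4ebp3 and 16 in shLacZ livers, and Ugt1a2, with 27 and 6, had too few counts to be tested.

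Ugt1a1 (ENSMUSG00000089960), the enzyme that conjugates bilirubin, held 273, 232, 262 and 293 CPM in shEif4ebp3 livers against 426, 411, 416 and 398 CPM in shLacZ livers. Every shEif4ebp3 liver was below every shLacZ liver, and the log2 fold change was -0.64 ± 0.08 (adjusted p = 8.81e-05, edgeR), but -0.07 and not called under total-count scaling (adjusted p = 0.469, edgeR). Ugt1a9 held 302, 289, 306 and 361 CPM in shEif4ebp3 livers against 298, 290, 261 and 313 CPM in shLacZ livers. Here the groups overlapped and the log2 fold change of 0.12 did not pass (adjusted p = 0.311, edgeR). With total counts the value was 0.68 and passed. The ratio of Ugt1a9 to Ugt1a1 per transcript length does not depend on the scaling: it was 1.12, 1.26, 1.19 and 1.25 in shEif4ebp3 livers against 0.712, 0.716, 0.637 and 0.798 in shLacZ livers, without overlap.

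The first-exon promoters of this pair are shown because the genes share exons and differ in their start. Windows run from 250 bases before to 50 bases after the start of the gene (RefSeq, GRCm38.p6, plus strand), chr1:88211709-88212008 for Ugt1a1 and chr1:88070529-88070828 for Ugt1a9. Capitals mark AGGTCA, the core of many nuclear receptor sites. Of 7 motifs searched, every one but the TATA box was looked for on both strands.
Ugt1a1: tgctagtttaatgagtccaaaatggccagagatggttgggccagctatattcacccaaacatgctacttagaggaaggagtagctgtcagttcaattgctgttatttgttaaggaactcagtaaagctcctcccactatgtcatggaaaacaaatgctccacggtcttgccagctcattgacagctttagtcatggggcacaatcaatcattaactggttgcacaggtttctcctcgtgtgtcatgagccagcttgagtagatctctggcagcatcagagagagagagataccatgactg
Ugt1a9: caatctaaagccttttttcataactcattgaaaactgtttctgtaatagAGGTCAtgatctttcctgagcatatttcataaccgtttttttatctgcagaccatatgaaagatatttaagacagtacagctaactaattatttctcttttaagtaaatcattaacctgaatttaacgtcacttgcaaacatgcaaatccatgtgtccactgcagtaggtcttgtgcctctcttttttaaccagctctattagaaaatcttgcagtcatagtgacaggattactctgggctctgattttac
AGGTCA was found at -201 in Ugt1a9, counted from the start, and no letters searched were found in the window of Ugt1a1. The promoters of Ugt1a1 and Ugt1a9 were 49.1% identical over their alignment, against 70.9% for those of Ugt1a9 and Ugt1a10.

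Ugt1a6a and Ugt1a6b encode near-identical enzymes for planar phenols. Ugt1a6b held 89.0, 90.6, 86.1 and 91.5 CPM in shEif4ebp3 livers against 127, 130, 131 and 120 CPM in shLacZ livers. It fell by 0.51 ± 0.06 on the log2 scale (adjusted p = 6.69e-05, edgeR) but the value was 0.06 under total-count scaling. Ugt1a6a held 121 to 123 CPM in shEif4ebp3 livers against 133 to 139 CPM in shLacZ livers, groups that did not overlap, and its log2 fold change of -0.15 did not pass (adjusted p = 0.0559, edgeR). DESeq2, limma-voom and RLE factors did call it lower (adjusted p = 0.00723, 0.0488 and 0.0496), and under total-count scaling it was higher, at 0.42. Since 79.8% of the windows of Ugt1a6b recur in other genes, the sum is less open to that division: the pair held 211 ± 2.71 CPM in shEif4ebp3 and 262 ± 6.99 CPM in shLacZ livers (SD, n = 4 each). Under total-count scaling the sum was higher in shEif4ebp3 livers, with 257 ± 12.9 CPM against 215 ± 8.96 CPM in shLacZ livers. The groups did not overlap under either scaling, so the direction for this pair rests on the scaling.

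The other Ugt1a genes were low or variable. Ugt1a5 held 31.3, 21.3, 24.1 and 29.7 CPM in shEif4ebp3 livers against 24.9, 31.9, 36.5 and 69.1 CPM in shLacZ livers, with overlap, and its log2 fold change of -0.61 ± 0.27 did not pass (adjusted p = 0.0742, edgeR), but it passed without shLacZ replicate 1 (-0.79), without a filter and with DESeq2. It was -0.23 without shLacZ replicate 4, the highest liver (adjusted p = 0.231, edgeR), and -0.07 under total-count scaling. Ugt1a7c held 5.44 to 7.95 CPM in shEif4ebp3 livers against 7.16 to 14 CPM in shLacZ livers and fell by 0.57 ± 0.21 (adjusted p = 0.0412, edgeR). That call was lost without shEif4ebp3 replicate 2, 3 or 4 or shLacZ replicate 2 or 4, where the value ranged from -0.58 to -0.33, in the samples coded C, which leave out replicate 4 of both groups (-0.50, adjusted p = 0.121, edgeR), with a replicate block (-0.54) and under total-count scaling (-0.00, adjusted p = 0.996, edgeR). What the letters C and D in the sample codes stand for is not given in the labels. Ugt1a10 held 2.08 to 2.92 CPM in shEif4ebp3 livers against 1.45 to 3.55 CPM in shLacZ livers, and did not pass (log2 fold change -0.07, adjusted p = 0.835, edgeR). Its value was 0.50 under total-count scaling and did not pass there either. The whole locus summed to 828, 763, 809 and 906 CPM in shEif4ebp3 livers against 1022, 1012, 996 and 1045 CPM in shLacZ livers, without overlap. Scaled to total counts the sums were 1007 ± 81.5 and 837 ± 63.4 CPM and overlapped, so the direction for the locus rests on the scaling.

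The Ugt2 genes form a cluster on chromosome 5 together with Sult1b1, Sult1d1 and Sult1e1, between 86889767 and 87591594 (mm10). The Ugt2b enzymes conjugate steroids, bile acids and many drugs. Of 7 tested Ugt2b genes, 5 fell, 1 rose and 1 did not pass, and the single tested Ugt2a gene fell. Thus 85.7% of the Ugt2b genes were called, against 57.2% of all genes (27.8% fell and 29.4% rose). Under total-count scaling 3 of the Ugt2b genes were lower and 2 higher, where 7.72% of all genes were lower and 63.9% higher. The neighbours Ugt2b1 and Ugt2b35 moved in opposite directions under either scaling.

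Ugt2b1 (ENSMUSG00000035836, 86916638 to 86926530, minus strand) held 59.1, 61.1, 69.3 and 76.8 CPM in shEif4ebp3 livers against 470, 422, 450 and 371 CPM in shLacZ livers. The groups were far apart, and the gene fell by 2.69 ± 0.11 on the log2 scale (adjusted p = 1.74e-07, edgeR). Its transcript shares no 50-base window with another gene, so this value does not rest on the division of reads. Ugt2b35 (ENSMUSG00000035811, 87000860 to 87013275, plus strand) lies next to it and held 264, 240, 208 and 290 CPM in shEif4ebp3 livers against 124, 140, 149 and 131 CPM in shLacZ livers. It was the only Ugt gene that rose by edgeR with TMM, by 0.88 ± 0.11 (adjusted p = 4.9e-05), and 0.303% of its windows recur elsewhere. The ratio of Ugt2b35 to Ugt2b1 per transcript length was 3.42, 3.01, 2.3 and 2.9 in shEif4ebp3 livers against 0.202, 0.254, 0.253 and 0.271 in shLacZ livers, so Ugt2b35 stood above Ugt2b1 in every shEif4ebp3 liver and below it in every shLacZ liver.

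Ugt2b34, on the other side of Ugt2b1, held 502, 455, 397 and 495 CPM in shEif4ebp3 livers against 354, 400, 383 and 447 CPM in shLacZ livers. The groups overlapped and the log2 fold change of 0.22 ± 0.10 did not pass (adjusted p = 0.0849, edgeR), though it passed without shEif4ebp3 replicate 3 (0.29), without shLacZ replicate 4 (0.28) and under total-count scaling (0.79). Ugt2b36 held 311, 299, 315 and 320 CPM in shEif4ebp3 livers against 386, 410, 412 and 439 CPM in shLacZ livers. It fell by 0.40 ± 0.07 (adjusted p = 0.00076, edgeR), with no overlap, and was 0.16 and not called under total-count scaling. Ugt2a3 held 55.4, 52, 61.9 and 63.7 CPM in shEif4ebp3 livers against 241, 225, 225 and 178 CPM in shLacZ livers, and fell by 1.9 ± 0.11 (adjusted p = 5.61e-07, edgeR). Ugt2a1 and Ugt2a2 are known from the olfactory epithelium. Ugt2a1 had no count in any sample and Ugt2a2 had 1 count, in shEif4ebp3 replicate 4.

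Ugt2b5, Ugt2b37 and Ugt2b38 are close copies whose starts are alike and whose decreases differed in size. Ugt2b5, the most abundant member per length in both groups, held 416, 378, 364 and 422 CPM in shEif4ebp3 livers against 661, 681, 704 and 619 CPM in shLacZ livers, and fell by 0.75 ± 0.08 (adjusted p = 2.77e-05, edgeR; -0.18 and not called under total-count scaling). Ugt2b37 held 1.7, 2.01, 3.99 and 3.64 CPM in shEif4ebp3 livers against 12, 8.6, 13.5 and 4.93 CPM in shLacZ livers, and fell by 1.78 ± 0.35 (adjusted p = 0.00117, edgeR). Ugt2b38 held 1.29, 1.45, 2.24 and 1.85 CPM in shEif4ebp3 livers against 27.3, 19.3, 28.7 and 12.4 CPM in shLacZ livers, and fell by 3.68 ± 0.28 (adjusted p = 2.31e-06, edgeR). All 3 were without overlap, and shLacZ replicate 4 was the lowest control for each of them, as it was for Eif4ebp3. That liver was also the lowest control for other members that fell, among them Sult2a8, Ugt2b1, Ugt2a3 and Sult5a1, but not for all. For Ugt2b36 (439 CPM) and Sult2a7 (1.92 CPM), which also fell, it was the highest control. Of the windows of Ugt2b5, Ugt2b37 and Ugt2b38, 41.7%, 18.3% and 37.4% recur in other genes. Reads of the abundant Ugt2b5 could thus have been counted under the others. The 3 together held 419, 382, 370 and 428 CPM in shEif4ebp3 livers against 700, 709, 746 and 636 CPM in shLacZ livers.

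The promoters of this trio are printed because the genes differ in size of change and little in these letters (RefSeq, GRCm38.p6, minus strand; chr5:87140291-87140590 for Ugt2b5, chr5:87254739-87255038 for Ugt2b37 and chr5:87424154-87424453 for Ugt2b38). Capitals mark AGGTCA and, in Ugt2b5, a match to TTGCNNAAT, a form of the C/EBP site, on the minus strand of the window.
Ugt2b5: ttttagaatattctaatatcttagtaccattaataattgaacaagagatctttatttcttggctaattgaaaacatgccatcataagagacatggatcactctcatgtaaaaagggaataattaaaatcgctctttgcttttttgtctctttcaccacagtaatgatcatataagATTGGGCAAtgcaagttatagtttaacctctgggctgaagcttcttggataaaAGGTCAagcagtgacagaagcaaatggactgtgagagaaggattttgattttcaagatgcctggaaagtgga
Ugt2b37: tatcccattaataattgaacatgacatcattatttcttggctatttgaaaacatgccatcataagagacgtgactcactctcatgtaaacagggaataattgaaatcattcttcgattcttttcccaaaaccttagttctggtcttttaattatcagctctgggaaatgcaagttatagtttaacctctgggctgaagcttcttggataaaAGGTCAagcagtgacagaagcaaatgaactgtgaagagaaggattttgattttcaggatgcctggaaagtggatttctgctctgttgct
Ugt2b38: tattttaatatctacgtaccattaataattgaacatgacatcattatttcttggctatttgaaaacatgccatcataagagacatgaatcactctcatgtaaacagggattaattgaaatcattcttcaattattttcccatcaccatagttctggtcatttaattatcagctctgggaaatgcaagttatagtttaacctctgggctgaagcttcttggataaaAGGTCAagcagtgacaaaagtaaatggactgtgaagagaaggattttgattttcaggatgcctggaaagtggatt
Ugt2b37 and Ugt2b38 were 86.9% identical over their alignment, Ugt2b38 and Ugt2b5 84.2%, and Ugt2b37 and Ugt2b5 76.2%. AGGTCA was found at -22, -39 and -25 in Ugt2b5, Ugt2b37 and Ugt2b38, within the same surrounding letters, and at -25 in Ugt2b36, which fell least of these 4. It was present in 10 of the 22 tested members with a promoter, against 16.3% of all windows. These were 7 of the 12 that fell, 2 of the 3 that rose and 1 of the 7 that did not pass. The C/EBP letters were found in Ugt2b5 alone among the 22 members, against 2.4% of all windows. For each motif a member was counted if any of its windows matched, whereas the share over all windows counts single windows. Several of the 10 members are related Ugt2b copies, so they are not independent, and enrichment was not tested.

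**Figure D3:**
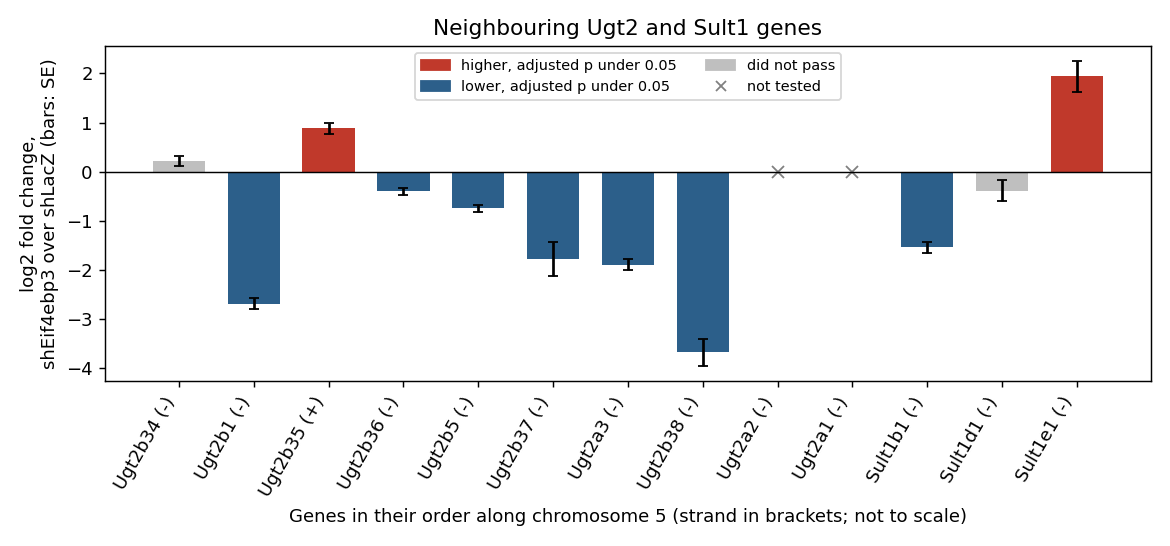
Fitted log2 fold change (bars are SE, n = 4 per group) of the genes of the chromosome 5 cluster in their order along the chromosome. Ugt2b35 (0.88) and Sult1e1 (1.94) rose, Ugt2b34 (0.22) and Sult1d1 (-0.39) did not pass, and the genes that fell ranged from -0.40 for Ugt2b36, which was 0.16 and not called under total-count scaling, to -3.68 for Ugt2b38.

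The Ugt3a genes, on chromosome 15, encode enzymes whose human relatives use UDP-sugars other than UDP-glucuronic acid. Ugt3a1 held 17.9, 12.5, 20.1 and 15 CPM in shEif4ebp3 livers against 97.4, 98.5, 88.4 and 97.6 CPM in shLacZ livers, and fell by 2.55 ± 0.13 on the log2 scale (adjusted p = 3.7e-07, edgeR). Ugt3a2 held 64.7, 48.8, 81.2 and 69.1 CPM in shEif4ebp3 livers against 370, 368, 358 and 319 CPM in shLacZ livers, and fell by 2.42 ± 0.14 (adjusted p = 5.73e-07, edgeR). The pair fell by like amounts without overlap, and in both genes shEif4ebp3 replicate 2 was lowest and replicate 3 highest within its group. They share 7.6 and 7.01% of their windows with other genes.

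Among the sulfotransferases, 4 of 9 tested genes fell (44.4%, against 27.8% of all genes), 3 rose (33.3%, against 29.4%) and 2 did not pass. The counts were the same under total-count scaling, where 7.72% of all genes were lower and 63.9% higher. Sult2a8 (ENSMUSG00000030378, chr7:14410686-14446769, minus strand), a bile acid sulfotransferase of mouse liver, had the lowest log2 fold change of all members. It held 24.1, 14.7, 34.7 and 29.3 CPM in shEif4ebp3 livers against 701, 666, 661 and 560 CPM in shLacZ livers. This is a log2 fold change of -4.65 ± 0.24, 25.2-fold lower (adjusted p = 3.41e-07, edgeR), and -4.83 to -4.46 with any 1 sample left out. The estimated counts were 764, 506, 1008 and 1144 in shEif4ebp3 livers and 14594, 14255, 12847 and 12265 in shLacZ livers, so the remaining signal was well above the count filter. Its transcripts share no window with other members and 1.72% with any gene.

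RefSeq lists a pair of starts for Sult2a8. The window printed (GRCm38.p6, chr7:14438502-14438801, minus strand) is that of the downstream start, which lies inside the gene. It was chosen because it alone held matches among the letters searched. The window at the annotated upstream end of the gene (chr7:14446538-14446837) held none. Capitals mark AGGTCA and TATAAA, the TATA box.
Sult2a8: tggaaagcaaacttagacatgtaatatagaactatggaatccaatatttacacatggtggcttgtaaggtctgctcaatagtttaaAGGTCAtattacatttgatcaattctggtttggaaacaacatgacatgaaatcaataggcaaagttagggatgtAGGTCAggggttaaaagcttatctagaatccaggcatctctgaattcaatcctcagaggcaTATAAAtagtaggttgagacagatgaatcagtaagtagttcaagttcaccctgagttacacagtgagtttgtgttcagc
AGGTCA stands at -164 and -90 and TATAAA at -29. On the sense strand TATAAA was found in 2 of the 22 tested members with a promoter, Sult2a8 and Ugt3a1, against 8.32% of all windows. Which start these livers used was not tested.

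The other Sult2 genes were low. Sult2a7, next to Sult2a8 on chromosome 7, held 0.158, 0.0872, 0.378 and 0.128 CPM in shEif4ebp3 livers against 0.336, 0.561, 1.03 and 1.92 CPM in shLacZ livers, in all 24 counts against 81. The groups overlapped and it fell by 2.38 ± 0.59 (adjusted p = 0.00554, edgeR). Sult2a2, which sulfates hydroxysteroids, held 0.442, 0.349, 0.344 and 0.693 CPM in shEif4ebp3 livers against 0.048, 0.0935, 0.0515 and 0.137 CPM in shLacZ livers, or 63 counts against 7, and rose by 2.40 ± 0.47 (adjusted p = 0.0012, edgeR). The filter minimum was 0.388 CPM on the scale of total counts, without the TMM factor used for the levels printed here. Both genes reached it in fewer than 2 samples of one group. They thus entered the test only (Sult2a2) or mainly (Sult2a7) through the group in which they were high. Sult2a1, a near copy of Sult2a2, was not tested and held 3, 8, 7 and 16 counts in shEif4ebp3 livers against 0, 2, 0 and 1 in shLacZ livers, a ratio of 7.06 on scaled libraries (95% exact counting interval 2.22 to 35.9). Reads of this pair can be exchanged, since 62.1% of the windows of Sult2a2 recur in other genes, and their sum was 0.701 ± 0.269 CPM in shEif4ebp3 and 0.117 ± 0.078 CPM in shLacZ livers (SD, n = 4 each). Sult2b1, which sulfates cholesterol and other hydroxysteroids, shares no window but overlaps exons of opposite-strand genes, and held 16, 11, 6 and 16 counts against 2, 0, 0 and 0, a ratio of 15.3 (4 to 130). The intervals cover counting error only.

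Sult1a1 and Sult1d1 carried most sulfotransferase RNA in shEif4ebp3 livers and did not pass the test. Sult1a1, the main phenol sulfotransferase, held 124, 151, 231 and 183 CPM in shEif4ebp3 livers against 272, 254, 248 and 168 CPM in shLacZ livers. The groups overlapped (log2 fold change -0.45 ± 0.19, adjusted p = 0.0679, edgeR), and the gene was called lower without shEif4ebp3 replicate 3 (-0.63), without shLacZ replicate 4 (-0.59), in the samples coded C (-0.62), without a filter and with DESeq2. Sult1d1, which sulfates catecholamines in mice, held 122, 124, 128 and 217 CPM in shEif4ebp3 livers against 233, 231, 168 and 143 CPM in shLacZ livers, again with overlap (log2 fold change -0.39 ± 0.21, adjusted p = 0.137, edgeR). It was called lower without shEif4ebp3 replicate 4 (-0.64) and without shLacZ replicate 4 (-0.52). In the samples coded C its log2 fold change was -0.76 (adjusted p = 0.000758, edgeR). Under total-count scaling both genes had positive values, 0.12 for Sult1a1 and 0.19 for Sult1d1, and neither passed.

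Sult1e1 (ENSMUSG00000029272, chr5:87575969-87591594, minus strand), the estrogen sulfotransferase, held 9.59, 13.6, 9.8 and 20.7 CPM in shEif4ebp3 livers against 2.5, 3.97, 5.15 and 2.42 CPM in shLacZ livers. The groups did not overlap and the gene rose by 1.94 ± 0.31 on the log2 scale, 3.85-fold (adjusted p = 0.000285, edgeR). It shares no window with another gene. Per transcript length the ratio of Sult1e1 to Sult2a8 was 0.687, 1.59, 0.488 and 1.22 in shEif4ebp3 livers against 0.00615, 0.0103, 0.0134 and 0.00746 in shLacZ livers. Sult1b1, which acts on thyroid hormones and phenols, held 8.71, 8.69, 8.84 and 10.8 CPM in shEif4ebp3 livers against 27.4, 30.5, 23.2 and 26.8 CPM in shLacZ livers, and fell by 1.54 ± 0.11 (adjusted p = 1.77e-06, edgeR). Sult1b1, Sult1d1 and Sult1e1 are neighbours on chromosome 5, and their log2 fold changes were -1.54, -0.39 and 1.94.

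Sult5a1 (ENSMUSG00000000739, chromosome 8, 123140192 to 123158315, minus strand) held 1.67, 1.45, 1.89 and 1.87 CPM in shEif4ebp3 livers against 27.2, 28.3, 27.7 and 23.9 CPM in shLacZ livers. It fell by 3.95 ± 0.12, 15.5-fold, with the smallest p of all members (adjusted p = 5.72e-08, edgeR), and replicates within each group lay close together. Sult1c2 held 1.67, 1.05, 0.929 and 1.64 CPM in shEif4ebp3 livers against 0.384, 0.608, 0.669 and 1.05 CPM in shLacZ livers, with overlap, and rose by 0.96 ± 0.34 (adjusted p = 0.0309, edgeR). That call was lost without shEif4ebp3 replicate 1 or 4 or without shLacZ replicate 1, 2 or 3, with values of 0.76 to 0.95. Of the members with few counts, Sult4a1, known from brain, held 25 counts in shEif4ebp3 and 3 in shLacZ livers, a ratio of 5.19 (1.58 to 26.9), and Sult6b1 held 33 and 7, a ratio of 2.94 (1.28 to 7.86). Sult6b2 held 3 and 0, Sult2a5 1 and 0, and Sult3a1 0 and 2 counts. Sult1c1, Sult2a3, Sult2a4, Sult2a6 and Sult3a2 had no count in any sample.

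Summed over the members, glucuronosyltransferase RNA was 2522, 2313, 2332 and 2664 CPM in shEif4ebp3 livers against 3764, 3785, 3808 and 3665 CPM in shLacZ livers. Under total-count scaling these sums overlapped, at 2995 ± 266 and 3083 ± 140 CPM (SD, n = 4 each). Sulfotransferase RNA was 293, 316, 417 and 466 CPM in shEif4ebp3 livers against 1264, 1215, 1136 and 927 CPM in shLacZ livers, and remained lower with total counts (452 ± 89.6 against 928 ± 77.3 CPM). The Sult2 genes accounted for most of that gap, with 27 ± 8.64 CPM in shEif4ebp3 and 648 ± 59.9 CPM in shLacZ livers, whereas the Sult1 sums overlapped (344 ± 76.3 and 460 ± 88.9 CPM).

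Shares of each pool per transcript length do not depend on the scaling, although a share can grow because other members fell. Sult2a8 made up 5.35 ± 1.33% of sulfotransferase RNA in shEif4ebp3 livers and 51.8 ± 2.66% in shLacZ livers (SD, n = 4 each). Sult1a1 held 59.6 ± 6.84% in shEif4ebp3 and 30.9 ± 2.28% in shLacZ livers, Sult1d1 27.4 ± 5.49% and 13.5 ± 1.69%, and Sult1e1 4.85 ± 1.42% and 0.482 ± 0.167%. None of these 4 overlapped between groups. The glucuronosyltransferase pool was divided more evenly: Ugt2b5 held 19.9 ± 0.619% in shEif4ebp3 and 21.3 ± 0.782% in shLacZ livers, and Ugt1a1 11.2 ± 0.497% and 11 ± 0.198%, with overlap for both. Shares without overlap included those of Ugt2b34 (14.2 ± 1.07% in shEif4ebp3 and 7.72 ± 0.893% in shLacZ livers), Ugt1a9 (13.5 ± 0.708% and 7.89 ± 0.721%), Ugt2b35 (6.98 ± 0.628% and 2.4 ± 0.171%), Ugt2b1 (2.43 ± 0.242% and 9.88 ± 0.848%) and the Ugt3a pair (3.34 ± 0.687% and 11.5 ± 0.472%).

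**Figure D4:**
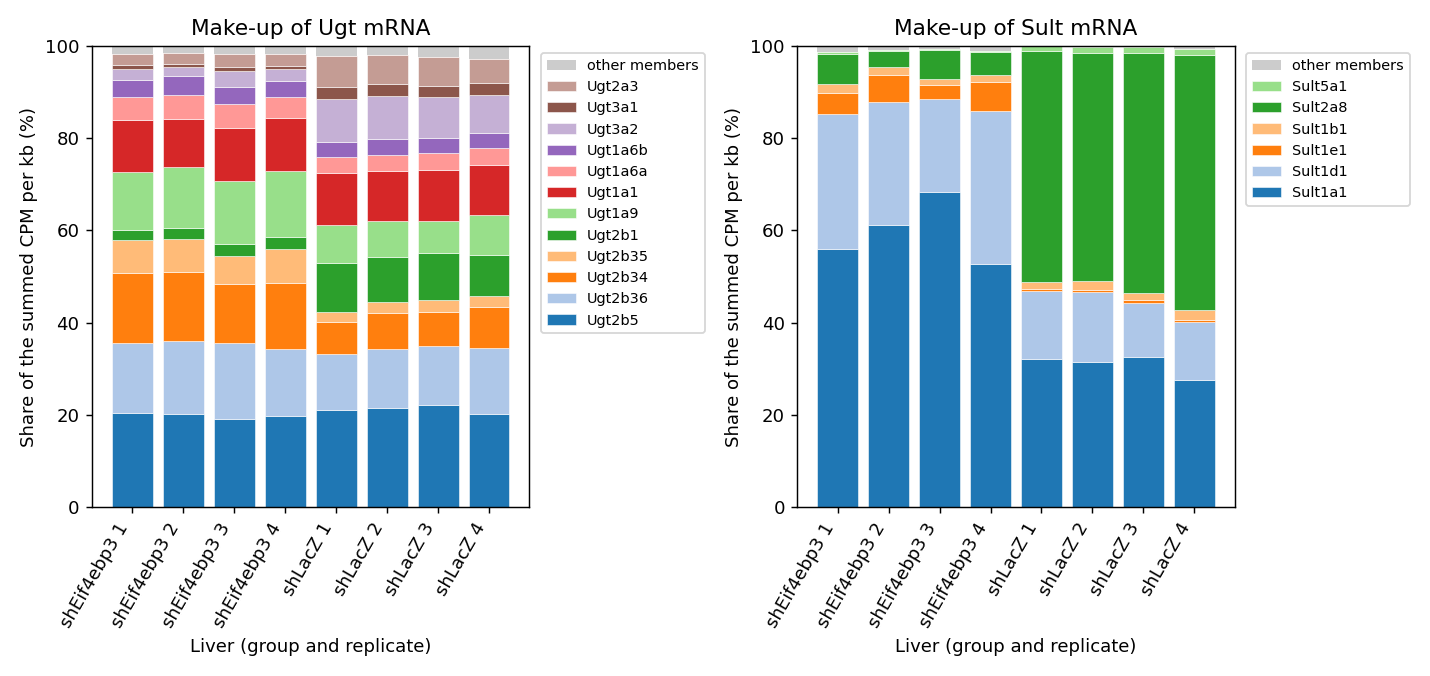
Make-up of glucuronosyltransferase RNA (left) and sulfotransferase RNA (right) in each liver, as percent of the summed CPM per kb of transcript, with shEif4ebp3 livers to the left of shLacZ livers. Sult2a8 takes a small part of each shEif4ebp3 bar (mean 5.35%) and the largest part of each shLacZ bar (mean 51.8%), and Ugt2b1 and Ugt3a2 are narrower in shEif4ebp3 livers.

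The order of levels per transcript length changed accordingly. In shEif4ebp3 livers it ran Ugt2b5 (213 ± 15.4 CPM per kb), Ugt2b36 (165 ± 4.84), Ugt2b34 (152 ± 15.8), Ugt1a9 (144 ± 14.6), Sult1a1 (134 ± 35.9) and Ugt1a1 (119 ± 11.3). From Ugt2b36 to Ugt1a1 the range of mean ± SD of each gene overlapped that of the next. In shLacZ livers it ran Ugt2b5 (359 ± 19.4 CPM per kb), Sult2a8 (302 ± 28.3), Ugt2b36 (218 ± 11.5), Ugt1a1 (186 ± 5.17), Sult1a1 (183 ± 35.9), Ugt2b1 (166 ± 16.6) and Ugt3a2 (152 ± 10.3). Here these ranges overlapped between neighbours from Ugt1a1 to Ugt3a2. Sult2a8 ranked 15 of 26 in shEif4ebp3 livers and 2 in shLacZ livers, and Ugt2b1 ranked 13 and 6. Ugt2b35 ranked 7 in shEif4ebp3 livers and 15 in shLacZ livers.

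Of 7 genes that make or carry UDP-glucuronic acid, 4 rose and 1 fell (median log2 fold change 0.36), and under total-count scaling 6 were higher and 0 lower. Beside this list and those below, 29.4% of all genes rose and 27.8% fell. Under total-count scaling 63.9% of all genes were higher and 7.72% lower. Ugdh, which oxidises UDP-glucose to UDP-glucuronic acid, held 299 ± 28.9 CPM in shEif4ebp3 and 128 ± 8.12 CPM in shLacZ livers (SD, n = 4 each), a rise of 1.22. Ugp2, which makes UDP-glucose, rose by 0.69, Pgm2 by 0.85, and the transporter gene Slc35d1, which carries the donor into the endoplasmic reticulum, by 0.36. Of 11 genes of PAPS supply and sulfate handling, 5 fell and 2 rose (median -0.26), and with total counts 2 were lower and 6 higher (median 0.31). Papss2, the main PAPS synthase of liver, held 103 ± 5.88 CPM in shEif4ebp3 and 229 ± 4.55 CPM in shLacZ livers, a log2 fold change of -1.15, and Suox, the sulfite oxidase that yields sulfate, had -1.41. Both fell under either scaling. Tpst1 fell by 0.46 (0.11 and not called under total-count scaling). The sulfate carrier gene Slc26a2, at 10.5 ± 2.24 CPM in shEif4ebp3 and 4.56 ± 1.89 CPM in shLacZ livers, rose by 1.21. Named after their values were seen, Slc26a1 fell by 0.70 and Papss1 rose by 0.52. Slc26a1, another sulfate carrier gene, held 77.2 ± 14.8 CPM in shEif4ebp3 and 125 ± 23.3 CPM in shLacZ livers. It had -0.13 and was not called under total-count scaling. Of 8 genes of deconjugation, among them the beta-glucuronidase gene Gusb (0.32), 3 rose and 1 fell, and under total-count scaling 7 were higher and 0 lower. With a replicate block 1 was higher and 1 lower, and with any 1 sample left out 1 or 2 were higher.

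Of 12 transporters that carry conjugates or take up organic anions and bile acids, 8 fell and 2 rose (median -0.77; 6 and 3 under total-count scaling). The hepatic uptake carriers Slco1a1, Slc10a1, Slco1b2 and Slco2b1 had log2 fold changes of -4.99, -2.44, -1.52 and -1.26. The 2 that rose, named after their values were seen, were Abcc3 (0.43) and Abcc4 (2.50), basolateral exporters that return conjugates to the blood. Also named afterwards, the exporters Abcc6 (-0.99) and Abcg2 (-0.46) fell and Abcb11 (-0.15) did not pass. Under total-count scaling these had -0.43, 0.12 and 0.40, where Abcc6 was lower, Abcg2 did not pass and Abcb11 was higher. The canalicular exporter Abcc2, also named afterwards, had -0.56 with TMM and 0.02 under total-count scaling.

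Of 22 receptors and factors known to act on Ugt and Sult genes, 13 fell and 2 rose (median -0.47), and under total-count scaling 7 were lower and 10 higher (median 0.10). Nr1i3, the constitutive androstane receptor that induces conjugating enzymes, held 82.6 ± 15.2 CPM in shEif4ebp3 and 247 ± 22.9 CPM in shLacZ livers (SD, n = 4 each) and fell by 1.58 on the log2 scale, and Ppara fell by 1.10 and Nr1h4, the bile acid receptor FXR, by 1.11, all under either scaling. Nfe2l2, which encodes NRF2, rose by 1.33. Nr1i2, the pregnane X receptor, and Ahr, the aryl hydrocarbon receptor, named after their values were seen, had 0.00 and -0.29, neither of which passed. Scaled to total counts, Nr1i2 was higher, at 0.57, and Ahr was at 0.30 without passing. Of the known targets of these factors, 20 of 22 NRF2 targets rose and 1 fell, a list that holds Ugdh, Abcc3 and Abcc4 too. Of 5 AHR targets 4 rose and 0 fell, and 1 of them, Nqo1, is also in the NRF2 list. Of 12 CAR and PXR targets 3 rose and 5 fell (4 higher and 4 lower under total-count scaling). The response element letters of NRF2, TGACNNNGC, were found in 0 of the 22 member promoters, against 12.4% of all windows, and the AHR core GCGTG in 3, against 32.4%, which says only that these letters are not in the other windows.

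**Figure D5:**
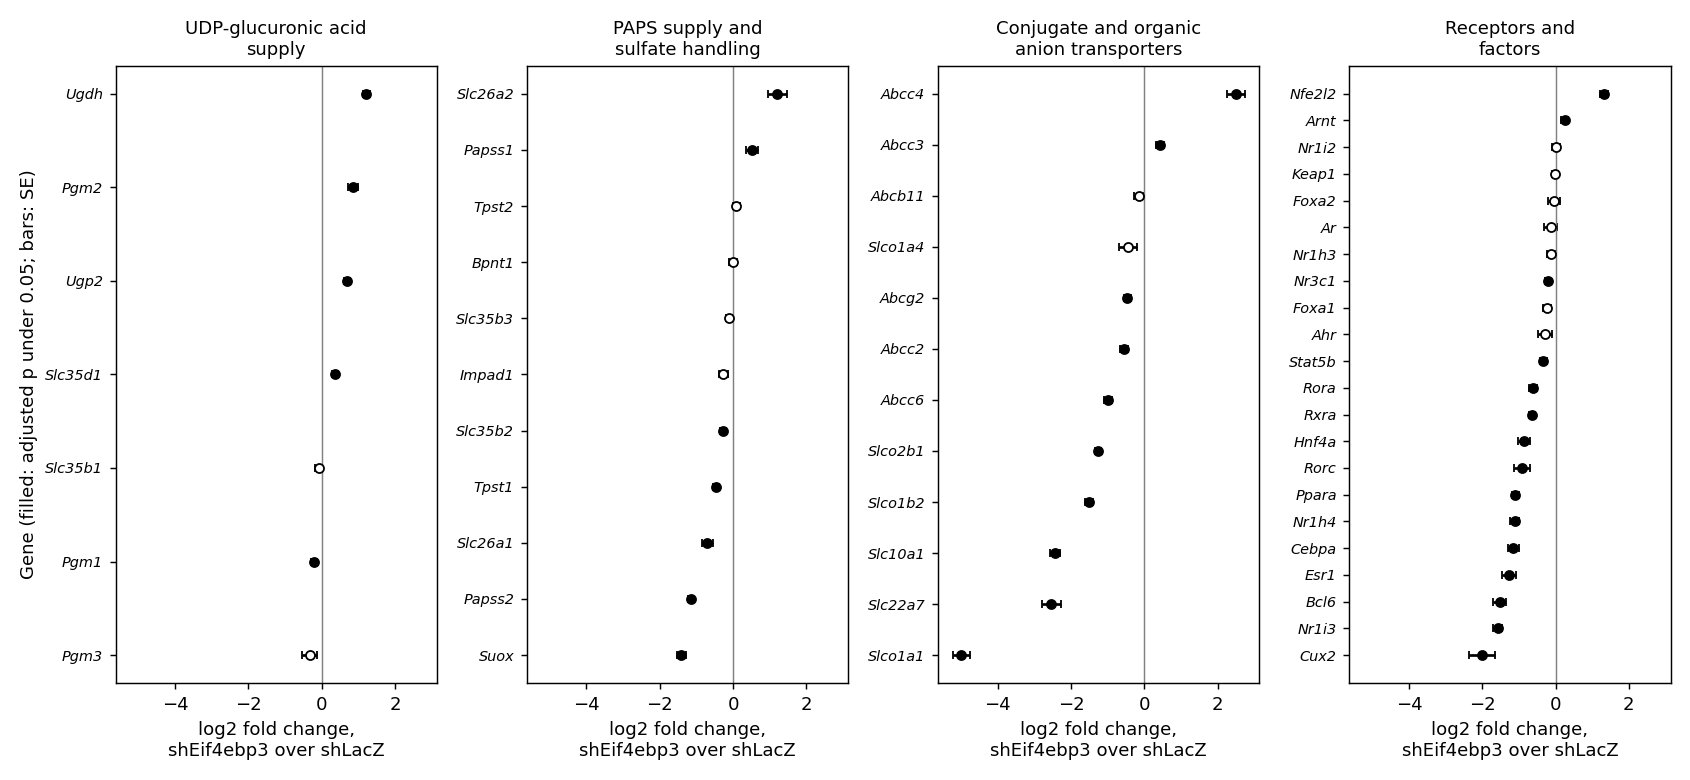
Fitted log2 fold change (bars are SE, n = 4 per group, TMM scaling) of tested genes that supply UDP-glucuronic acid, supply PAPS or handle sulfate, transport conjugates and organic anions, or regulate Ugt and Sult genes. Ugdh (1.22) heads the first panel, Papss2 (-1.15) and Suox (-1.41) stand at the bottom of the second, and Slco1a1 (-4.99) at the bottom of the third.

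Several sulfotransferases differ by sex in mouse liver, among them Sult2a1, Sult2a2 and Sult3a1, which are higher in females. Of 18 genes known to be higher in male mouse liver, 18 fell under either scaling (median -3.66 with TMM), and of 16 tested genes known to be higher in females, 7 rose and 5 fell (median 0.17). Slco1a1 is in the male list as well as among the transporters. Sult2a1 and Sult2a2 had few counts, as given above, and Sult3a1 had 2 counts in 1 shLacZ liver and 0 elsewhere, which allows up to 3 counts in each of the others.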

How the data were processed

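Liver RNA of 8 samples (4 shEif4ebp3, 4 shLacZ) was sequenced after depletion of ribosomal RNA, per the labels' protocols. Per the submitters' processing notes, the tools were SAMtools 1.9, GATK 3.8, Bowtie2 2.2.9 and fastp 0.19.5, on mm10. The sources used here give no counting program, annotation or strandedness. Values per gene are expected counts as the authors deposited them, without normalisation. Rounding changed the 10.9% that were not whole. Assembled loci without a gene identifier (645, with 0.676 to 1.08% of the counts of a sample) were left out. Another table holds results of the comparison the authors made, namely a fold (ratio), a log2 fold change, a p-value and an adjusted p-value for each gene, per the file headers.

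In R 4.3.3 with edgeR 4.0.16, filterByExpr kept 15375 genes, factors were TMM, and p-values from glmQLFit and glmQLFTest had Benjamini-Hochberg adjustment over all of them. CPM used the summed counts of these 15375 genes times the TMM factor. Levels between genes are per kb of the gene length that the authors deposited. Members follow a rule on gene names. Members and lists were chosen with earlier results of these data known. Besides members, the rule named Eif4ebp3 and in each list up to 4 called genes, by smallest p. A gene of the regulator list is not reported here. Of 2 lists, Sts and Tf were not matched. Lists of B cell (0 of 4 tested higher), neutrophil (1 of 5), erythroid (1 of 6 higher, 1 lower), gut (2 of 4 higher, 1 lower) and endothelial markers were also counted.

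Positions are from GENCODE release 21 (55450 of the 55536 identifiers found). Windows of 50 bases in its transcripts gave the share of sequence common to several genes. RefSeq promoters matched 36 of 42 members, and 7 motifs were searched in them. Replicates of a group differed with a chi-square of at least 9.83 for each degree of freedom, so no 2 libraries agreed within counting error. In simulated data with 15375 genes, 67 were changed 1.5-fold, 67 changed 2-fold and 66 changed 4-fold. The fit recovered 46.3%, 77.6% and 92.4% of these, with 11 false calls, so small changes can be missed. The simulation held no difference in scaling between groups, and in the data 57.2% of genes were called. These rates therefore need not hold for the data. Alternatives were DESeq2 1.42.0, limma-voom (limma 3.58.1), RLE factors, total-count scaling, no filter, a replicate block, the samples coded C and leaving out each sample.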

Additional observations from a re-analysis of the deposited data

Results flagged for a closer look

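Of 64 sets of 4 samples examined, 3 held a sample whose gap to its neighbour exceeded Dixon's 95% critical value, and chance gives about 1 in 20 sets. Sult1b1 was 10.8 CPM in shEif4ebp3 replicate 4, above the other shEif4ebp3 livers at 8.69 to 8.84 CPM, and below every shLacZ liver. Sult1d1 was 217 CPM in shEif4ebp3 replicate 4, against 122 to 128 CPM in the other shEif4ebp3 livers, and this value lay among the shLacZ livers (143 to 233 CPM). Without that liver Sult1d1 had a log2 fold change of -0.64 (adjusted p = 0.00963, edgeR), against -0.39 with it. Ugt3a1 was 88.4 CPM in shLacZ replicate 3, against 97.4 to 98.5 CPM in the other shLacZ livers, a gap that is small beside the 12.5 to 20.1 CPM of shEif4ebp3 livers.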

How the results depend on the processing

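Of 19 called members, 17 had the same call in each of the 14 alternatives other than total-count scaling, and the exceptions were Ugt1a7c and Sult1c2. Under total-count scaling 14 of the 19 kept their call, 9832 genes were higher and 1187 lower (4527 and 4271 with TMM), and 7 members were higher and 10 lower (4 and 15 with TMM). That scaling turned the sign of Ugt1a10 (0.50), Ugt1a6b (0.06), Ugt1a6a (0.42), Ugt2b36 (0.16), Sult1d1 (0.19) and Sult1a1 (0.12), and it ended the calls of Ugt1a7c, Ugt1a6b, Ugt1a1, Ugt2b36 and Ugt2b5. By its construction it moves every gene by a near-constant amount. With 1 sample left out, Ugt1a10 ranged from -0.27 to 0.12, being 0.01 without shLacZ replicate 1 and 0.12 without shLacZ replicate 3, and the cause was not tested. Over the same settings 3 to 6 members were higher and 14 to 16 lower, 4090 to 4811 of all genes were higher and 3764 to 4492 lower, and Eif4ebp3 ranged from -3.73 to -2.97. Deviations of same-numbered samples from their group means correlated weakly across genes (r from -0.175 to 0.174). The highest value was for replicate 4, the sample coded D in each group. Such correlations cannot decide whether the numbers pair the samples. With a replicate block, 4414 genes were higher and 4067 lower, with 4 and 14 members, Eif4ebp3 was at -3.15, and only Ugt1a7c among members lost its call (-0.54, adjusted p = 0.0619, edgeR). Depth limits Sult2a1, Sult2b1, Sult4a1, Sult6b1, Sult3a1 and the other members with few counts, for which small differences were not detectable.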

Other observations

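Some members with too few counts for the test used here stand in the authors' deposited table with a fold change. There Sult2b1 has a log2 fold change of 2.39 (adjusted p = 0.000573) and Sult2a1 of 1.69 (adjusted p = 0.0225), and the authors' deposited table marks both as significantly higher in knockdown. The authors' deposited table gives Sult2a8 a log2 fold change of -4.55, Sult5a1 -3.91 and Ugt2b38 -3.54. In the authors' deposited table Ugt2b35 has 0.879 and is not marked, with an adjusted p of 3.8e-13. Ugt2b5 (-0.750) and Ugt1a1 (-0.636), each with an adjusted p under 0.05 there, are not marked either. Of the marked members, Sult1b1 has the log2 fold change of smallest size, -1.52.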
